A study of Homo sapiens with 14 samples.

Results

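The genes described here are the RB family and the E2F transcription factors, a set of 10 genes picked by symbol from 60683 gene identifiers, of which 60370 had a symbol in GENCODE 44: RB1, RBL1, RBL2, E2F1, E2F2, E2F3, E2F4, E2F7, E2F8 and MYBL2. RB1 encodes RB, and RBL1 and RBL2 encode its relatives p107 and p130, the pocket proteins that bind E2F factors and keep their target genes silent until cyclin-dependent kinases (CDK4 and CDK6 with cyclin D, then CDK2 with cyclin E) phosphorylate them. E2F1, E2F2 and E2F3 are activators that switch on genes for DNA replication, E2F4 works mainly as a repressor together with p107 and p130, and E2F7 and E2F8 are atypical factors that repress E2F targets without a pocket protein. MYBL2 encodes B-MYB, which joins the MuvB core once p130 and E2F4 have left it and carries expression on into the genes of mitosis. Several of these genes are themselves E2F targets, which makes their RNA a common readout of whether cells pass from G1 into S phase.

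RNA was sequenced from A549, a lung cancer line, and SUM159, a triple negative breast cancer line, in 14 libraries of 7 groups with 2 libraries each. A549 cells were left untreated, given 2 µM palbociclib (a CDK4/6 inhibitor), 0.5 µM indisulam (a sulfonamide that marks the splicing factor RBM39 for degradation and was first described as an indirect inhibitor of CDK2) or both drugs for 10 days, or given 0.5 µM PF-06873600 (described as an inhibitor of CDK2, CDK4 and CDK6) for 7 days. SUM159 cells were left untreated or given 0.5 µM PF-06873600 for 7 days. When the untreated cells were harvested is not given in the sources used here. The labels name no engineered allele, and within a line the drug treatments were the labelled difference. The submitters call the duplicates technical, so the p-values below measure only the spread between duplicates, estimated over all groups of a model. Whether that spread holds any variation between cultures is not known. The spread of counts between duplicates, as chi-square per degree of freedom, was largest in untreated A549 (9.57) and untreated SUM159 (9.05). It was 1.61 to 5.04 in the treated groups.

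The libraries held between 13060374 and 21149256 reads counted on genes. Levels are given as CPM, the usual counts-per-million-reads scale, relative to the library's total on genes, and 3 counts, taken as the smallest level a library can show, corresponded to 0.142 to 0.23 CPM. ALDH1A1 and VIM set the lines apart: ALDH1A1 stood at 3640 to 4706 CPM in A549 and at most 2.75 CPM in SUM159. VIM stood at 628.3 to 1792 CPM in A549 and at 3609 to 4318 CPM in SUM159. ESR1 had at most 14 counts in any library. CDKN2A, the gene of the CDK4/6 inhibitor p16, had 0 counts in every A549 library and at most 3 in SUM159. The study describes A549 as lacking p16 but reports more p16 protein in SUM159, on Western blots of palbociclib, indisulam and their combination. Those SUM159 treatments are not among these libraries. PTPRC and PECAM1, markers of blood and endothelial cells, stood at 9.35 to 20.3 and 10.9 to 27.6 CPM in SUM159 while CD3E, a T cell marker, had 0 counts in all 14 libraries, and the part of this in the SUM159 results was not tested. In such bulk libraries a smaller share of cycling cells and less RNA per cell cannot be told apart.

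All 10 genes passed the filter on low counts in both lines and were tested in edgeR by its quasi-likelihood F method, with p-values adjusted by Benjamini-Hochberg over all genes of each model (15780 in A549, 15055 in SUM159, 17279 in the model of both lines). A gene is called higher or lower where that adjusted p was under 0.05. The comparisons with untreated A549 cells share the same untreated libraries and are not independent of each other.

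The combination of palbociclib and indisulam was followed by the widest loss among the A549 groups. Against untreated cells, 8 of the 10 genes were lower and 1 was higher, where 30.0% of all genes tested were lower and 35.1% higher, and the median log2 fold change was -0.66 over the 10 genes and 0.05 over all genes. E2F8, E2F2, MYBL2 and RBL1 fell 10.2-fold, 7.64-fold, 5.08-fold and 3.88-fold, E2F1 fell 1.78-fold, and E2F3 rose 1.33-fold. Palbociclib alone moved 2 genes up (E2F1 and E2F3) and 3 down (E2F7, E2F8 and MYBL2), against 8.30% of all genes higher and 7.40% lower. The calls of E2F7 and MYBL2 were the weak ones: without palbociclib replicate 1 or without palbociclib replicate 2 only 3 of the genes were called, and the same 3 calls were left by DESeq2 and by a model of the compared groups alone. Indisulam alone moved 1 gene up (E2F3) and 2 down (RBL1 and RBL2), against 28.0% higher and 17.5% lower. RBL1 and RBL2 stayed lower over 10 alternatives, at -0.91 to -0.80 and -0.52 to -0.38, but the other calls depend on the scaling. By TMM the call of E2F3 was lost (0.17, adjusted p = 0.0953), as it was by DESeq2, and 4 of the 10 genes were lower, E2F4 (-0.20, adjusted p = 0.0318) and MYBL2 (-0.22, adjusted p = 0.0323) being added, and of all genes 3613 were higher and 3558 lower, against 4420 and 2757 by total count. DESeq2 called 2742 genes higher and 2543 lower.

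PF-06873600 went with opposite patterns in the lines. In A549, 6 of the 10 genes were higher and 1 was lower, with 28.5% of all genes higher and 27.8% lower and a median log2 fold change of 0.37 over the 10 genes against -0.01 over all genes. In SUM159, 1 of the 10 was higher and 8 were lower, with 38.1% of all genes higher and 35.6% lower and a median of -0.58 against 0.02. The difference between the responses was itself past the threshold for all 10 genes: 9 had a lower response in SUM159 and RBL2 a higher one, where 27.2% and 25.8% of all genes did. PF-06873600 was used at another dose and for another time than palbociclib or the combination, so those values are given side by side and were not compared.

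**Figure D1:**
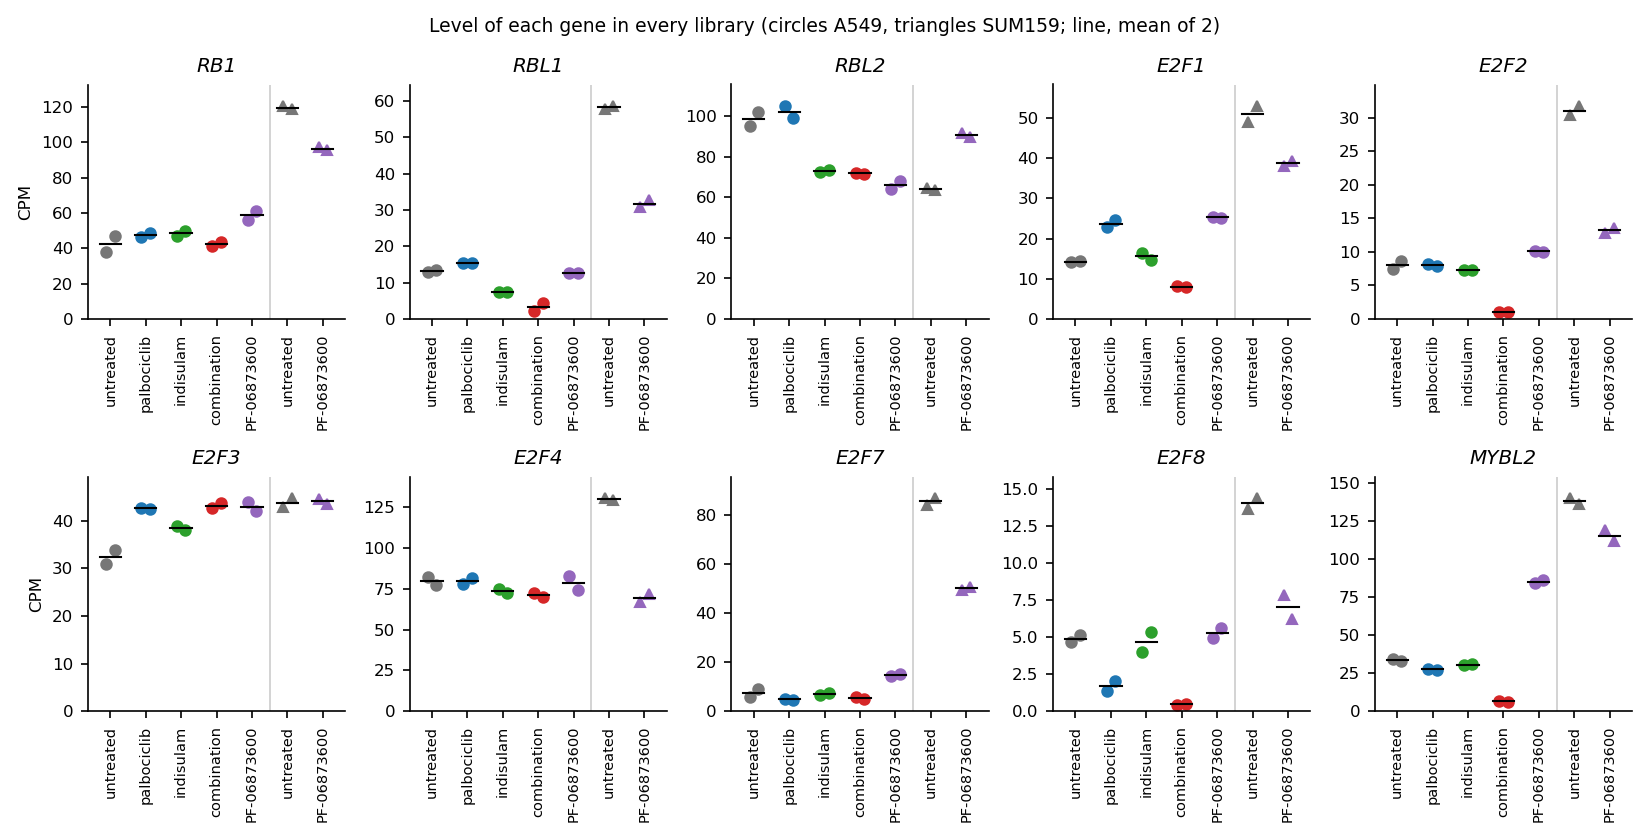
Each panel plots 1 gene on a linear axis from 0 in CPM, with a point for every library (circles for A549, triangles for SUM159) and a line at the mean of the 2 libraries of a group. RBL1, E2F1, E2F2, E2F8 and MYBL2 were lowest in the combination, MYBL2 rose from 32.9 and 34.1 CPM in untreated A549 to 83.9 and 86.0 with PF-06873600, and E2F7 lay far higher in both SUM159 groups than in any A549 group.

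The promoters are shown because several of the genes that fell together are described as E2F targets, and because the letters of an E2F site were not equally present in them. RefSeq windows of 300 bases (250 before the start of transcription, 50 from it on; GRCh38.p14) were found for 9 of the 10 genes and not for E2F8. The windows were searched on both strands for the E2F letters TTTCCCGC, TTTCGCGC, TTTGCCGC and TTTGGCGC, which 3.31% of all 35116 windows hold. RBL1 and E2F1 held 2 matches each, which did not overlap, and E2F2 and E2F3 held 1 match each. The windows of RBL2, E2F4, E2F7 and MYBL2 and the second window of E2F3 held none, and the window of RB1 also held none, but its start of transcription lies 172706 bases inside the gene by GENCODE. The starts used for RBL2 lie 494 and 1642 bases from the GENCODE end of the gene. For the second window of E2F3 the distance is 1735 bases, and for MYBL2 it is 95. The 70 bases before the start follow for the genes with a match, with the matches in capitals, and for E2F7 as a member without one. They were chr20:37095998-37096067 (RBL1, minus strand), chr20:33686386-33686455 (E2F1, minus strand), chr1:23531234-23531303 (E2F2, minus strand), chr6:20401809-20401878 (E2F3, plus strand) and chr12:77065570-77065639 (E2F7, minus strand).
RBL1: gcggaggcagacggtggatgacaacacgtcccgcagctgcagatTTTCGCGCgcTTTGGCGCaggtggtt
E2F1: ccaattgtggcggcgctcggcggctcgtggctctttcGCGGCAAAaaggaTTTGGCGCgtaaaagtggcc
E2F2: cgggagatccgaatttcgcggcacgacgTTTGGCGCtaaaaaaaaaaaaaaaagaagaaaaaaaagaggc
E2F3: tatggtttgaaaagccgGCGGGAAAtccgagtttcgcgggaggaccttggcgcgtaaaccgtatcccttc
E2F7: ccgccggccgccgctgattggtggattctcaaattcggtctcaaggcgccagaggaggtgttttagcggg
All 70 bases of the RBL1 stretch also lie in an annotated exon of a long noncoding RNA on the other strand (ENSG00000269846, chr20:37095785-37097178), which had at most 2 counts in any library. The match nearest the start began 16 bases before it in RBL1, 20 in E2F1, 42 in E2F2 and 53 in E2F3. The letters TTTGAA, the core of the CHR element that MuvB complexes bind, occurred in 15.2% of all windows and here in RBL2, 25 bases into the transcribed part, and in E2F3, 65 bases before the start. RBL1, E2F1 and E2F2, with a match, were lower in the combination, whereas E2F3, with a match, was higher, and MYBL2, without one, was lower. A match of letters is a description of the window and does not show binding. The lack of a match with these exact letters does not show that a site is absent.

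RB1 RNA changed little in A549 except with PF-06873600, where it rose. RB1 (ENSG00000139687, chr13:48303744-48599436, plus strand) stood at 38 and 47.1 CPM in the untreated libraries, 46.2 and 48.4 with palbociclib, 47.2 and 49.9 with indisulam, 41.5 and 43.7 with the combination, and 56.2 and 60.9 with PF-06873600. The untreated libraries lay apart from each other and spanned those of the combination, and the PF-06873600 libraries alone lay above all others. The log2 fold change was 0.00 with the combination (95% interval -0.20 to 0.20) and 0.46 ± 0.09 (SE) with PF-06873600 (edgeR adjusted p = 0.000634). It was 0.15 with palbociclib and 0.19 with indisulam, neither past the threshold (adjusted p = 0.31 and 0.112), but without untreated replicate 2, the higher one, both were (0.32, adjusted p = 0.014, and 0.35, adjusted p = 0.00254). In SUM159 the gene stood at 120.6 and 118.6 CPM untreated and at 97.3 and 95.4 with PF-06873600, a fall by 0.31 (adjusted p = 7.62e-05). The response was therefore of opposite sign in the lines, with a difference of -0.77 ± 0.11 (adjusted p = 7.85e-06). LPAR6 and RCBTB2 overlap RB1 on the other strand, each with 0 shared exon bases. They had 30 to 184 and 31 to 309 counts, against 559 to 2017 for RB1.

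RBL1, the gene of p107, fell with indisulam and further with the combination. RBL1 (ENSG00000080839, chr20:36996349-37095997, minus strand) stood at 12.98 and 13.4 CPM in untreated A549, 15.5 and 15.4 with palbociclib, 7.33 and 7.53 with indisulam, 2.198 and 4.505 with the combination, and 12.6 and 12.7 with PF-06873600. The groups treated with indisulam lay below the rest, and the combination libraries, with 31 and 70 counts, lay below those with indisulam alone and far from each other. The fall was 0.83 ± 0.17 on the log2 scale with indisulam (adjusted p = 0.00135) and 1.96 ± 0.20 with the combination (adjusted p = 6.76e-07). Since the combination libraries differed, the second value moved to -1.55 without combination replicate 1 and to -2.58 without combination replicate 2, both past the threshold. The changes with palbociclib (0.23) and PF-06873600 (-0.06) did not pass (adjusted p = 0.376 and 0.786). In SUM159 the gene stood at 57.8 and 58.7 CPM untreated and fell to 30.7 and 32.8 with PF-06873600, by 0.87 ± 0.07 (adjusted p = 2.03e-08).

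RBL2, the gene of p130, fell with PF-06873600 in A549, where most of the set rose, and rose in SUM159, where most of it fell. RBL2 (ENSG00000103479, chr16:53433977-53491648, plus strand) stood at 95.2 and 102.2 CPM in untreated A549, 105.1 and 99.0 with palbociclib, 72.6 and 73.3 with indisulam, 72.04 and 71.57 with the combination, and 63.9 and 68.0 with PF-06873600. Palbociclib and untreated libraries overlapped, and the other groups lay below both. The fall was 0.44 with indisulam, 0.46 with the combination and 0.58 with PF-06873600, each with an SE of 0.06 (adjusted p = 7.66e-05, 1.97e-05 and 2.91e-06). In SUM159 the direction was the other way, from 64.7 and 63.6 CPM to 91.8 and 89.9, a rise of 0.50 ± 0.06 (adjusted p = 1.17e-06), and the difference between the lines was 1.08 ± 0.09 (adjusted p = 3.21e-09). AKTIP on the other strand shares 609 exon bases with RBL2 and had 204 to 450 counts, against 835 to 1902 for RBL2. Whether the counting used strand is not given in the sources used here, so reads of the shared stretch may count for either gene.

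Among the pocket proteins the balance of RNA per length shifted. As a share of the summed CPM per kb of exon, RBL2 made up 58.0% ± 1.70 (SD, n = 2) in untreated A549, RB1 31.4% ± 2.30 and RBL1 10.6% ± 0.60. With the combination RBL1 was down to 2.35% and 4.62% in the libraries, and RB1 was at 41.1% and 41.5%. With PF-06873600 RB1 (46.6% and 47.4%) was above RBL2 (41.9% and 42.1%), the reverse of the order in the other A549 groups. Untreated SUM159 differed most, with RB1 at 51.25%, RBL1 at 26.95% and RBL2 at 21.8%, and with PF-06873600 RBL2 came to 35.6% and RBL1 to 16.9%. These shares describe RNA and say nothing of protein or its phosphorylation.

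**Figure D2:**
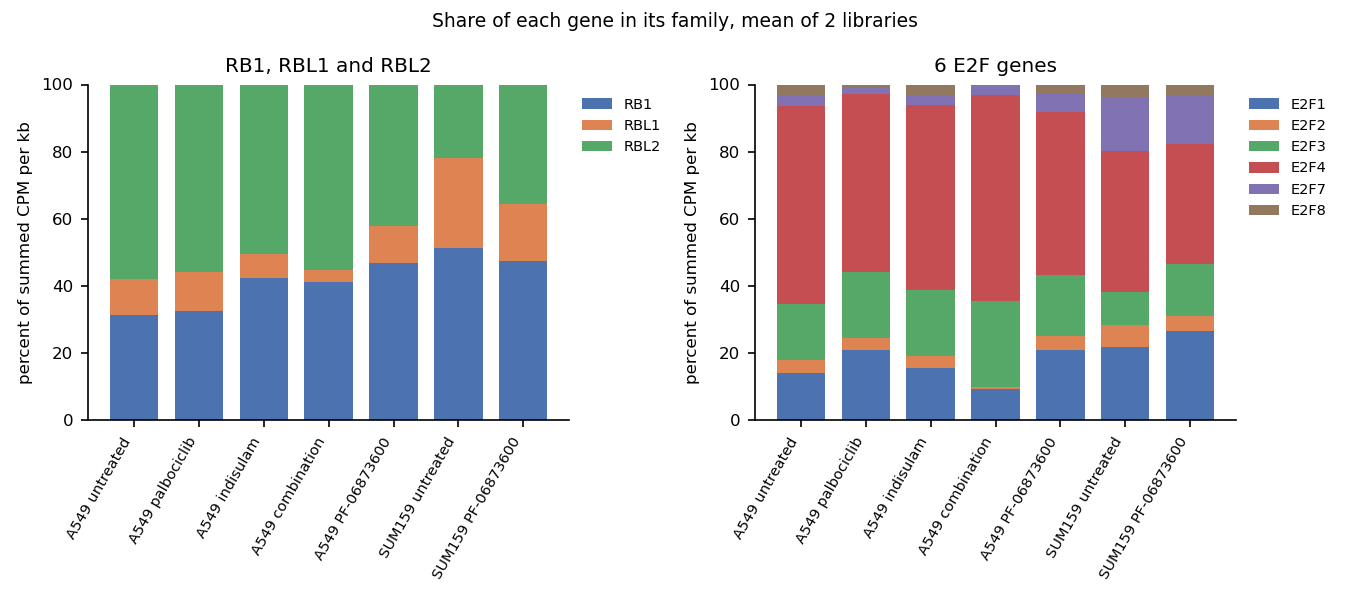
Stacked bars give each gene's share, in percent, of the summed CPM per kb of exon of its family, as the mean of 2 libraries in each of the 7 groups, for the pocket proteins (left) and the E2F genes (right). RBL1 shrinks to 3.49% of the pocket protein RNA in the combination, and E2F4 is the largest E2F share in every group, from 35.6% to 61.4%.

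E2F1 separated palbociclib alone from palbociclib with indisulam. E2F1 (ENSG00000101412, chr20:33675477-33686385, minus strand) stood at 14.2 and 14.3 CPM in untreated A549, 22.9 and 24.6 with palbociclib, 16.5 and 14.6 with indisulam, 8.15 and 7.85 with the combination, and 25.5 and 25.04 with PF-06873600. Palbociclib and PF-06873600 libraries lay above the untreated ones, the combination libraries below them, and no libraries of these groups overlapped. The log2 fold change was 0.74 ± 0.10 with palbociclib (adjusted p = 0.000147), 0.82 ± 0.10 with PF-06873600 (adjusted p = 5.05e-06) and -0.83 ± 0.11 with the combination (adjusted p = 1.42e-05). With indisulam alone it was 0.12 and did not pass (adjusted p = 0.345). In SUM159 E2F1 fell from 49.0 and 53.1 CPM to 38 and 39.4 with PF-06873600, by 0.40 ± 0.07 (adjusted p = 0.000107).

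E2F2 was near its untreated level with each drug alone and was mostly lost with both. E2F2 (ENSG00000007968, chr1:23506438-23531233, minus strand) stood at 7.41 and 8.67 CPM in untreated A549, 8.24 and 7.87 with palbociclib, 7.33 and 7.27 with indisulam, 0.993 and 1.09 with the combination, and 10.2 and 10.0 with PF-06873600. The combination libraries held 14 and 17 counts where the untreated ones held 109 and 130. The fall with the combination was 2.93 ± 0.20 (adjusted p = 7.31e-09), while palbociclib (0.00, 95% interval -0.29 to 0.29) and indisulam (-0.14, interval -0.43 to 0.15) did not pass. The rise with PF-06873600 (0.33, adjusted p = 0.0456) was close to the threshold and was past it in 3 of 10 alternatives. It was lost without untreated replicate 1 (adjusted p = 0.247) and without either PF-06873600 library (adjusted p = 0.143 and 0.129). In SUM159 E2F2 fell from 30.3 and 31.8 CPM to 12.8 and 13.6, by 1.23 ± 0.09 (adjusted p = 1.03e-08).

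E2F3 was the activator that did not fall with the combination in A549 or with PF-06873600 in SUM159. Its counts are for the whole gene and do not separate the RefSeq starts given above. E2F3 (ENSG00000112242, chr6:20401879-20493714, plus strand) stood at 30.9 and 33.9 CPM in untreated A549, 42.7 and 42.5 with palbociclib, 38.8 and 38.1 with indisulam, 42.6 and 43.7 with the combination, and 43.9 and 41.9 with PF-06873600. Every treated library was above both untreated libraries. The rise was 0.40 ± 0.07 with palbociclib (adjusted p = 0.00235), 0.41 ± 0.07 with the combination (adjusted p = 0.000209) and 0.40 ± 0.07 with PF-06873600 (adjusted p = 0.00035). The rise of 0.25 with indisulam (adjusted p = 0.0161) was past the threshold in 4 of 10 alternatives and was 0.17 by TMM scaling (adjusted p = 0.0953), and it was lost without untreated replicate 1 (0.18, adjusted p = 0.082) and without indisulam replicate 1 or replicate 2 (adjusted p = 0.0799 and 0.0521). In SUM159 the gene stood at 42.8 and 44.7 CPM untreated and 44.5 and 43.6 with PF-06873600, a log2 fold change of 0.01 with a 95% interval of -0.13 to 0.15.

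E2F4, the main repressor partner of p107 and p130, had small changes in A549 and fell in SUM159. E2F4 (ENSG00000205250, chr16:67192155-67198918, plus strand) stood at 82.5 and 77.6 CPM in untreated A549, 77.9 and 81.3 with palbociclib, 75.2 and 72.3 with indisulam, 72.5 and 69.8 with the combination, and 82.8 and 74.3 with PF-06873600. Groups next to each other in the order of their means overlapped, while the indisulam and combination libraries lay below the untreated ones. The fall of 0.17 with the combination (adjusted p = 0.0444) was past the threshold in 5 of 10 alternatives and was not without untreated replicate 1 (adjusted p = 0.143) or without combination replicate 1 or replicate 2 (adjusted p = 0.0822 and 0.207). With indisulam the change was -0.12 (adjusted p = 0.183), and -0.20 by TMM scaling, past the threshold (adjusted p = 0.0318). In SUM159 E2F4 fell from 130.6 and 129.6 CPM to 67.2 and 71.8 with PF-06873600, by 0.90 ± 0.06 (adjusted p = 1.61e-09). The difference between the lines was -0.87 ± 0.09 (adjusted p = 1.41e-07).

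E2F7 rose with PF-06873600 in A549 and fell in SUM159. E2F7 (ENSG00000165891, chr12:77021248-77065569, minus strand) stood at 5.91 and 8.93 CPM in untreated A549, 5.05 and 4.64 with palbociclib, 6.77 and 7.53 with indisulam, 5.67 and 5.02 with the combination, and 14.5 and 15.3 with PF-06873600. The untreated libraries, with 87 and 134 counts, lay far apart, and the PF-06873600 libraries were the only ones above both. The rise with PF-06873600 was 1.00 ± 0.16 (adjusted p = 0.0001), and 1.33 without untreated replicate 2. The falls with palbociclib (0.62, adjusted p = 0.0379) and with the combination (0.48, adjusted p = 0.0354) rested on that library: without it the log2 fold changes were -0.29 and -0.15 (adjusted p = 0.333 and 0.517). They were also lost without any single library of the treated group, at adjusted p between 0.0607 and 0.193. In SUM159 the gene stood at 84.5 and 87.1 CPM untreated and fell to 49.5 and 50.9, by 0.77 ± 0.06 (adjusted p = 1.64e-08).

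E2F8, the other atypical factor, fell with palbociclib and further with the combination. E2F8 (ENSG00000129173, chr11:19224063-19241620, minus strand) stood at 4.69 and 5.13 CPM in untreated A549, 1.34 and 2.08 with palbociclib, 4.01 and 5.35 with indisulam, 0.425 and 0.515 with the combination, and 4.98 and 5.63 with PF-06873600. Palbociclib libraries lay below all libraries without it, and the combination libraries, with 6 and 8 counts, lay below those with palbociclib alone. The fall was 1.50 ± 0.24 with palbociclib (adjusted p = 0.000673) and 3.36 ± 0.32 with the combination (adjusted p = 3.05e-07), while indisulam (-0.07) and PF-06873600 (0.12) did not pass (adjusted p = 0.81 and 0.648). In SUM159 E2F8 fell from 13.7 and 14.4 CPM to 7.83 and 6.24 with PF-06873600, by 1.01 ± 0.13 (adjusted p = 7.64e-06). So in A549 the atypical pair parted, E2F7 being higher with PF-06873600 and E2F8 not past the threshold, with a 95% interval for E2F8 of -0.31 to 0.54.

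MYBL2 had the largest rise with a drug among the 10 genes, and only E2F8 and E2F2 fell further with the combination. MYBL2 (ENSG00000101057, chr20:43667019-43716495, plus strand) stood at 34.1 and 32.9 CPM in untreated A549, 28.1 and 27.3 with palbociclib, 30.2 and 30.7 with indisulam, 6.88 and 6.31 with the combination, and 83.9 and 86.0 with PF-06873600. None of these groups overlapped another. The fall with the combination was 2.35 ± 0.09 (adjusted p = 2.47e-11), and the rise with PF-06873600 was 1.34 ± 0.07 or 2.54-fold (adjusted p = 8.62e-10). The fall of 0.27 with palbociclib (adjusted p = 0.0233) was past the threshold in 5 of 11 alternatives and was not without either palbociclib library (adjusted p = 0.084 and 0.151) or without untreated replicate 1 (adjusted p = 0.0523). Indisulam gave -0.14, not past the threshold (adjusted p = 0.154), and -0.22 by TMM scaling, past it (adjusted p = 0.0323). In SUM159 MYBL2 fell from 140.0 and 135.8 CPM to 118.7 and 111.9 with PF-06873600, by 0.26 ± 0.05 (adjusted p = 0.000582).

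**Figure D3:**
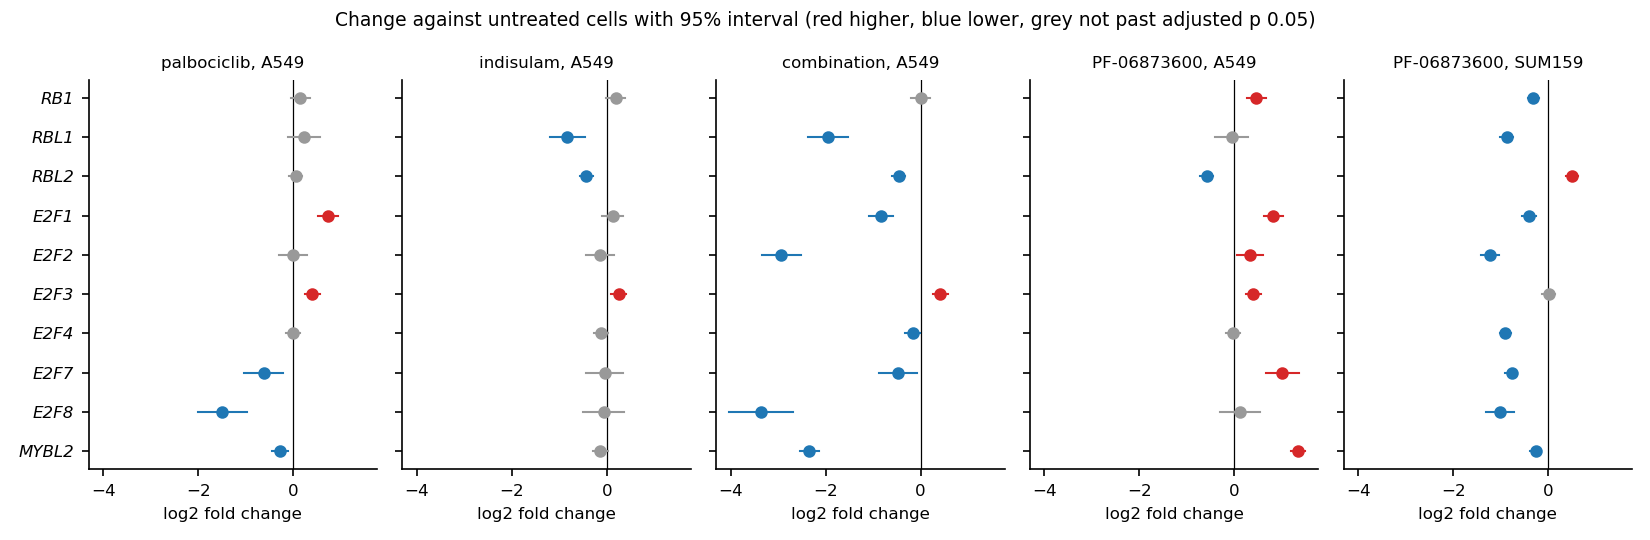
Points are log2 fold changes of the 10 genes against untreated cells of the same line in 5 comparisons, with bars for the 95% interval and colour for calls at an edgeR adjusted p under 0.05. The combination column holds the falls of 2.93, 3.36 and 2.35 (E2F2, E2F8 and MYBL2), and the PF-06873600 columns show E2F1, E2F2, E2F7 and MYBL2 on opposite sides of 0 in the lines.

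The E2F RNAs differ in abundance, and per length the order was led by E2F4. In untreated A549 E2F4 stood at 22.25 CPM per kb of exon and made up 59.12% ± 2.625 (SD, n = 2) of the summed level of the 6 E2F genes per kb, followed by E2F3 at 16.6%, E2F1 at 14.1%, E2F2 at 3.91%, E2F8 at 3.16% and E2F7 at 3.13%. The last pair overlapped between libraries. With palbociclib E2F1 took 20.7% and 21.4% and E2F8 0.787% and 1.18%. With the combination E2F3 (25.2% and 26.4%) was far above E2F1 (9.16% and 9.30%), and E2F2 and E2F8 made up 0.593% and 0.353%. In untreated SUM159 the repressor E2F7 made up 15.8% and E2F4 41.9%.

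Adding the second drug was compared with each drug alone. Against palbociclib, 6 of the 10 genes were lower in the combination and 0 were higher (26.9% of all genes lower, 33.5% higher): E2F2 by 2.93, RBL1 by 2.18, MYBL2 by 2.07, E2F8 by 1.86, E2F1 by 1.57 and RBL2 by 0.51 on the log2 scale, with adjusted p of at most 0.000776. The 4 others included E2F4 at -0.16 (adjusted p = 0.0554) and E2F3 at 0.02, and at an unadjusted p under 0.05, as by DESeq2, 0 of the 10 were higher. TMM scaling called 8 of the genes lower, E2F4 (-0.26, adjusted p = 0.00528) and RB1 (-0.24, adjusted p = 0.0361) being the additions. Against indisulam, 5 were lower and 0 higher (23.9% of all genes lower, 22.0% higher): E2F8 by 3.29, E2F2 by 2.79, MYBL2 by 2.21, RBL1 by 1.13 and E2F1 by 0.96. Since the combination libraries differed in RBL1, its value was -1.78 against palbociclib and -0.72 against indisulam without combination replicate 1, and -2.81 and -1.75 without combination replicate 2, all past the threshold. RBL2, lower with indisulam than in untreated cells, differed by -0.02 between the combination and indisulam (95% interval -0.16 to 0.12). E2F3 was at 0.17 with an unadjusted p of 0.038 and an adjusted p of 0.0761, the only one of the 10 above 0 at an unadjusted p under 0.05, and DESeq2 called 0 higher.

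The combination also fell below the sum of the single-drug changes for part of the set. The interaction term, the log2 change with both drugs minus the sum of the log2 changes with each, passed the threshold below 0 for 5 of the 10 genes and above 0 for 0 (14.5% of all genes below, 10.7% above). It was -2.79 ± 0.25 for E2F2 (adjusted p = 1.3e-06), -1.93 ± 0.12 for MYBL2 (5.21e-08), -1.69 ± 0.15 for E2F1 (1.18e-06), -1.79 ± 0.44 for E2F8 (0.00805) and -1.35 ± 0.27 for RBL1 (0.00175). E2F1 is the case where the sign turned, higher with palbociclib, near the untreated level with indisulam and lower with both. For E2F8 the term was -1.42 and did not pass (adjusted p = 0.0691) without palbociclib replicate 2, and for RBL1 it was -0.95 without combination replicate 1 and -1.98 without combination replicate 2, still past the threshold. For RB1 (-0.34, adjusted p = 0.0745) it became a call without untreated replicate 2 (-0.51, adjusted p = 0.00145), as it did for E2F3 (-0.29, adjusted p = 0.0427, from -0.23). RBL2, E2F4 and E2F7 had terms of -0.07, -0.05 and 0.20, none past the threshold (adjusted p between 0.631 and 0.788). At an unadjusted p under 0.05, as by DESeq2, 0 of the 10 terms were above 0.

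Untreated cells of the lines held these genes at different levels. Untreated SUM159 had 9 of the 10 genes higher than untreated A549 and 1 lower, where 41.9% of all genes were higher and 36.8% lower. E2F7 differed most, 11.5-fold (3.53 ± 0.12, adjusted p = 8.65e-16), from 5.91 and 8.93 CPM to 84.5 and 87.1. RBL1 was 4.41-fold, MYBL2 4.12-fold, E2F2 3.86-fold, E2F1 3.57-fold, E2F8 2.86-fold and RB1 2.81-fold higher, E2F4 1.63-fold and E2F3 1.35-fold, with adjusted p of at most 1.7e-05. RBL2 was 1.54-fold lower in SUM159 (-0.62 ± 0.06, adjusted p = 1.69e-08). The difference was not particular to the 10 genes. All 24 G1/S targets and all 24 G2/M targets described further below were also higher in untreated SUM159. Their medians were 2.35 and 1.71, against 0.08 over all genes. All 9 genes of RB kinases and their cyclins were higher too. The lines were grown in different media, SUM159 with insulin and hydrocortisone, so that line and medium cannot be told apart.

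With PF-06873600 the lines responded differently in each of the 10 genes. As for the untreated cells, line and medium cannot be told apart in this difference. The difference of the log2 responses, SUM159 minus A549, was -1.77 ± 0.16 for E2F7, -1.60 ± 0.09 for MYBL2, -1.56 ± 0.15 for E2F2 and -1.22 ± 0.12 for E2F1 (adjusted p of at most 6.33e-08). For E2F8, E2F4, RBL1, RB1 and E2F3 it was -1.12, -0.87, -0.82, -0.77 and -0.39 (adjusted p of at most 0.00223). All 10 stayed past the threshold in each of 14 alternatives. MYBL2 shows the span: treated A549 reached 83.9 and 86.0 CPM, and treated SUM159, though lower than untreated SUM159, still stood at 118.7 and 111.9.

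The genes that these factors control were read from lists of 24 G1/S targets of E2F and 24 G2/M targets of B-MYB and the MuvB complex. The lists were chosen with earlier results of these data known, and the counts depend on that choice. The cyclin E genes were placed in another list, where with the combination CCNE2 was lower (-1.89) and CCNE1 higher (1.28). With the combination all 24 G1/S targets and all 24 G2/M targets were lower, with median log2 fold changes of -1.78 and -2.37 against 0.05 over all genes. Of all genes 30.0% were lower. CDC45 and GINS2, parts of the replication helicase, and TK1, a thymidine kinase, fell by 3.24, 3.02 and 2.95, and CDC25C, a phosphatase that activates CDK1, the mitotic kinesin KIF20A and the centrosome kinase NEK2 by 3.34, 3.19 and 2.97 (adjusted p of at most 3.7e-08). Palbociclib alone left 9 G1/S targets higher, 2 lower and 13 not called, and 11 G2/M targets lower and 13 not called, with medians of 0.21 and -0.27. The shares of all genes were 8.30% higher and 7.40% lower. In a model of the compared groups alone 5 G1/S targets were higher and 1 lower, and 5 G2/M targets were lower. Without palbociclib replicate 2 the counts were 6 higher, 1 lower and 6 lower in the same order. Indisulam alone gave 7 G1/S targets higher and 6 lower and 3 G2/M targets higher and 7 lower, with medians of 0.12 and -0.03 against 0.08 over all genes. With 28.0% of all genes higher and 17.5% lower, the higher G1/S targets were near the share of all genes. Over 10 alternatives the G1/S counts for indisulam ran from 2 to 7 higher and from 5 to 6 lower, and the G2/M counts from 2 to 4 higher and from 5 to 8 lower.

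PF-06873600 in A549 parted the lists. Of the G1/S targets 21 were higher, 1 (TK1, -0.38) was lower and 2 were not called, with a median of 0.80, while of the G2/M targets 21 were lower and 3 not called, with a median of -0.80. Of all genes 28.5% were higher and 27.8% lower. CDC45 went from 10.8 and 12.9 CPM to 20.5 and 20.9, and KIF20A from 42.0 and 49.3 to 7.27 and 7.05. In SUM159 all 24 of each list were lower, with medians of -1.11 and -1.47, where 35.6% of all genes were lower. MYBL2 in A549 moved with the G1/S targets here (higher by 1.34), whereas the G2/M targets, which its protein is known to activate, were lower. The difference between the lines was called below 0 for 23 of 24 G1/S targets, and for 16 of 24 G2/M targets with 3 called above 0. Of all genes 27.2% were called below 0 and 25.8% above 0.

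**Figure D4:**
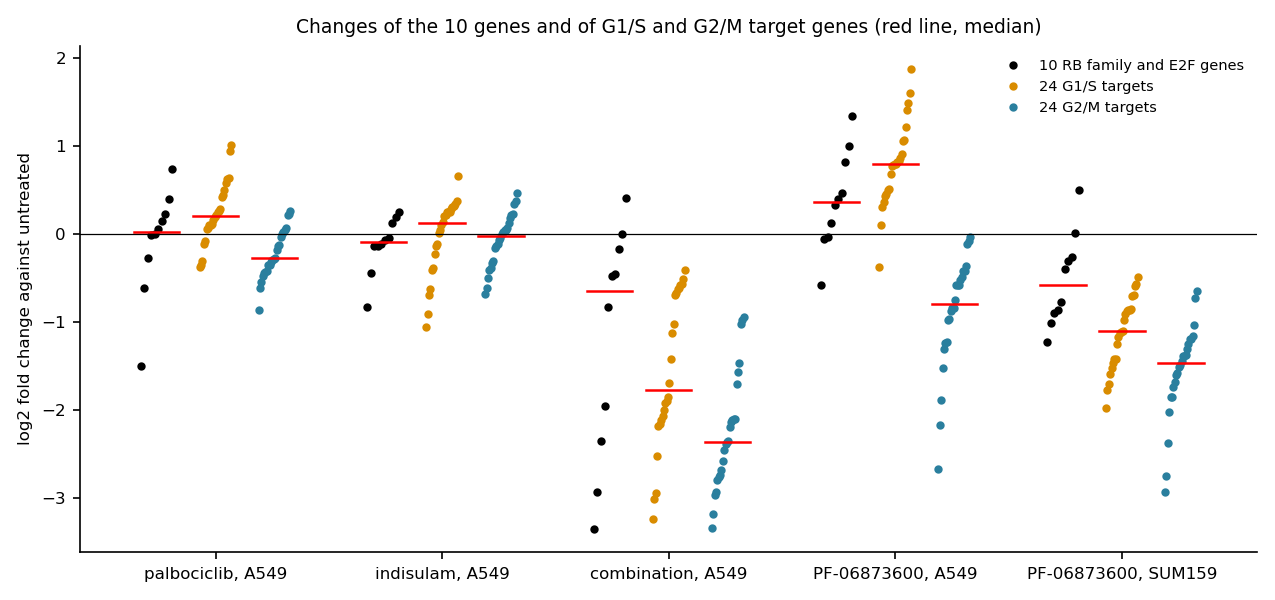
Each point is the log2 fold change of 1 gene against untreated cells of its line, for the 10 RB family and E2F genes (black), 24 G1/S targets (orange) and 24 G2/M targets (blue) in 5 comparisons, with red lines at the medians. The G1/S median is 0.80 and the G2/M median -0.80 with PF-06873600 in A549, and both are below 0 in the combination and in SUM159.

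Of the other E2F and DP genes, TFDP1, the DNA-binding partner of most E2F factors, fell from 100.2 and 103.6 CPM to 75.6 and 72.6 with the combination (-0.46 ± 0.06, adjusted p = 6.79e-06), fell with indisulam (-0.27) and rose with PF-06873600 in A549 to 133.2 and 132.7 (0.38, adjusted p = 4.16e-05) while it fell in SUM159 (-0.43, adjusted p = 4.67e-06). E2F5 fell by 0.32 with the combination, and E2F6 and TFDP2 gave -0.23 and 0.02, not past the threshold. TFDP2 rose in SUM159 with PF-06873600 from 17.9 and 20.0 CPM to 50.7 and 49.6 (1.40 ± 0.08, adjusted p = 5.18e-10). In the MuvB core, LIN52, LIN54 and RBBP4 fell with the combination by 1.21, 0.50 and 0.31, while LIN9 (0.07) and LIN37 (0.63) did not pass. LIN52, whose phosphorylation joins p130 to MuvB, also fell with PF-06873600 in A549 (-1.06) and SUM159 (-0.67), and LIN9 rose with palbociclib (0.75 ± 0.13, adjusted p = 0.000977).

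Upstream of the pocket proteins, of 9 genes of RB kinases and their cyclins, 5 were higher and 4 lower with the combination, and 8 were higher and 1 lower with PF-06873600 in A549. Of all genes 35.1% were higher and 30.0% lower with the combination, and 28.5% and 27.8% with PF-06873600. CCND1, the gene of cyclin D1, rose from 429.2 and 406.1 CPM to 1474 and 1522 with the combination (1.84 ± 0.05, adjusted p = 1.01e-12). CCNE2, which encodes a cyclin E, fell with the combination from 2.38 and 2.67 CPM to 0.922 and 0.451 (13 and 7 counts). With PF-06873600 in A549 it rose to 19.1 and 16.0 (2.79 ± 0.20, adjusted p = 2.95e-08), as E2F1 and MYBL2 did. CCNE1, the other cyclin E gene, went the other way with the combination, higher by 1.28 ± 0.09 (adjusted p = 2.16e-08). It was also higher with palbociclib (0.90) and with indisulam (0.67). CCND2 had 0 counts in both untreated A549 libraries, and the combination libraries held 29 and 34 counts. Set against 3 counts per untreated library, this was at least 10.5-fold higher. Of 7 CDK inhibitor genes 5 could be tested, and with the combination CDKN1A, the gene of p21, rose from 39.2 and 43.7 CPM to 683.3 and 666.0 (4.03 ± 0.07, adjusted p = 6.26e-15) while CDKN2C fell from 61.5 and 70.3 to 9.501 and 8.238 (-2.90 ± 0.12, adjusted p = 2.47e-11). CDKN1C rose with the combination (2.28, adjusted p = 0.00363), though its untreated libraries held 1 and 12 counts. CDKN1B fell with the combination (-1.30 ± 0.08, adjusted p = 3.69e-09), so that 2 of the 5 inhibitor genes tested were higher and 2 lower.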

How the data were processed

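RNA sequencing of 14 libraries of A549 and SUM159 cells was analysed. Strand-specific poly(A) libraries were sequenced by the authors as single-end reads and aligned to hg38, and for each library they deposited a table of whole-number read counts per gene, not normalized, with replicates kept apart. The submitters' processing notes name HISAT2 2.2.1 and HTSeq without a role. The annotation release and the use of strand in counting are not given in the sources used here.

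Symbols, coordinates and exon lengths came from GENCODE 44 (hg38), and promoter windows from RefSeq (GRCh38.p14). The 9 summary rows of each table were left out of library totals, and 3.02% to 3.47% of reads were ambiguous between genes. Genes kept by filterByExpr were scaled by total count, as in the study, and tested with edgeR 4.0.16 (R 4.3.3), in models of A549 (10 libraries), SUM159 (4) and both lines. The 95% intervals are from the moderated standard error of the same fit. An exact permutation test of 2 against 2 cannot go below p = 0.33. Reads carry no molecular identifiers, so floors cover counting error only. Scripts were tested on simulated data. Python 3.11.15, numpy 2.4.6, pandas 2.3.3 and matplotlib 3.10.9 were also used.

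The 10 genes, the gene lists and the tests were chosen with earlier results of these data known. Besides the 10, at most 3 genes of a list are named, those with the largest change in the combination, and all genes of lists of 5 or fewer. CCNE1 and CDKN1B were named in addition, after seeing the data, because they went against a named gene of their list. Alternatives were each library left out in turn, TMM factors, the replicate number as a block, fitting the compared groups alone, testing every gene without a filter, a minimum mean of 50 counts, and DESeq2 1.42.0. List counts and crossed replicate numbers were added after seeing the data.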

Additional observations from a re-analysis of the deposited data

Results flagged for a closer look

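The combination fell below the sum of the single-drug changes, by the interaction term of edgeR, for E2F2 (-2.79, adjusted p = 1.3e-06), MYBL2 (-1.93, adjusted p = 5.21e-08), E2F8 (-1.79, adjusted p = 0.00805), E2F1 (-1.69, adjusted p = 1.18e-06) and RBL1 (-1.35, adjusted p = 0.00175). Leaving out a library moved the RBL1 value to -0.95 without combination replicate 1 and to -1.98 without combination replicate 2, and the E2F8 call was lost, at -1.42 (adjusted p = 0.0691) without palbociclib replicate 2.

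The response to PF-06873600 differed between SUM159 and A549 for all 10 genes by the interaction term of the model of both lines. As SUM159 minus A549 on the log2 scale the difference was -1.77 for E2F7, -1.60 for MYBL2, -1.56 for E2F2, -1.22 for E2F1, -1.12 for E2F8, -0.87 for E2F4, -0.82 for RBL1, -0.77 for RB1 and -0.39 for E2F3, and 1.08 for RBL2, with adjusted p of at most 0.00223. The RBL2 value has the opposite sign to the other 9. The lines were grown in different media, so line and medium cannot be told apart here.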

How the results depend on the processing

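Counts of called genes among the 10 stayed within 1.5 times the reported count in 105 of 109 alternative fits, and no log2 fold change past the threshold changed sign and stayed past it. The exceptions concern palbociclib against untreated A549, where 5 genes were called and 3 were called by DESeq2 and with only the compared groups in the model. Over all genes that comparison called 1310 higher and 1168 lower, against 967 and 622 by DESeq2, 543 and 406 with only the compared groups, 816 and 656 without palbociclib replicate 1, and 779 and 522 without palbociclib replicate 2. Leaving out each library in turn gave 3 to 5 calls for palbociclib, 2 to 4 for indisulam, 7 to 8 for the combination, 4 to 7 for the interaction and 6 to 7 for PF-06873600 in A549. It gave 9 for PF-06873600 in SUM159 and 10 for both comparisons of the lines. Where a group is left with 1 library, that library is assumed to vary like the other groups. Of the single log2 fold changes, 1042 kept their side of the threshold, 35 lost it and 13 gained it. TMM moved the median of all genes by at most 0.09.

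The labels number the replicates but do not say that a number marks a shared culture, and with 2 pairs the numbers establish no pairing. The correlation of deviations of same-numbered libraries was 0.349 between indisulam and untreated A549, -0.345 between palbociclib and untreated, and -0.299 between untreated SUM159 and untreated A549. With the replicate number as a block, 5 of the genes were called for palbociclib, 3 for indisulam, 9 for the combination, 6 for the interaction (RB1, at -0.34 with adjusted p = 0.0396, being added) and 6 for PF-06873600 in A549. The block with crossed numbers, added after seeing the data, called 5 for palbociclib and 10 for untreated SUM159 against A549.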

Other observations

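Across the 10 A549 libraries, which hold 5 groups of 2 libraries, the genes nearest in pattern to each member are described by Pearson correlation of log2(CPM + 1), among 11048 genes with a mean of at least 5 CPM and with no test. E2F1 was nearest to MCM5 (0.993), MCM3 (0.992) and MCM8 (0.99), genes of minichromosome maintenance proteins of DNA replication. E2F2 was nearest to NCAPG (0.991), GINS2 (0.99) and MCMBP (0.989), a condensin subunit, a helicase subunit and an MCM binding protein. MYBL2 was nearest to FAM111B (0.998), NR2C2AP (0.988) and TCF19 (0.986). RBL1 was nearest to FAM120C (0.986), RBL2 to GOLPH3L (0.987), RB1 to NR5A2 (0.974), E2F7 to ELF3-AS1 (0.972) and E2F3 to FLVCR2 (0.968), with MCL1 (0.967) and BCL2L1 (0.965), genes of antiapoptotic proteins, next for E2F3. E2F8, at a mean of 3.41 CPM, had BUD23 (0.948) and E2F4 had SGK2 (0.929). Within the set the highest correlations were E2F2 with MYBL2 (0.92), RBL1 with E2F2 (0.89) and E2F1 with E2F2 (0.88), and the lowest were RBL2 with E2F7 (-0.53) and E2F3 with E2F8 (-0.52).

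Of the line markers not yet given, KRT8 and KRT18, keratins of epithelial cells, stood at 1908 to 5680 and 2389 to 5467 CPM in A549 and at 259.8 to 432.5 and 166.4 to 320.6 CPM in SUM159. EPCAM stood at 7.73 to 26.4 CPM in A549 and at most 0.844 in SUM159. AKR1B10 stood at 1554 to 6667 CPM in A549 and at 3.57 to 12.51 in SUM159. CD44 overlapped between the lines, at 610.4 to 1269 CPM in A549 and 902 to 1338 in SUM159. ERBB2 did too, at 109.2 to 166.2 and 118.2 to 130.2 CPM. PGR had at most 1 count in any library. MTAP, next to CDKN2A on the chromosome, had at most 5 counts in A549 and 0 in SUM159, and CDKN2B had 0 counts in A549 and at most 1 in SUM159. CDH5, an endothelial cadherin, had at most 20 counts in SUM159, where PECAM1 had 181 to 584.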
